A study of Mus musculus with 25 samples.

Results

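The genes described here are 8 markers of bile duct cells and liver progenitor cells, Epcam, Krt19, Krt7, Sox9, Spp1, Prom1, Cd24a and Tm4sf4, chosen by name from the array's annotation. A named probe set was found for 7 of the 8. Spp1, which encodes the secreted protein osteopontin, was not analysed here. All 7 had a mean above the limit set for dim probe sets (the 20th percentile, 3.33 on the log2 scale), so they are 7 of the 15951 genes tested, out of 19938 named genes. Each was read by 1 probe set.

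The arrays measured RNA from frozen liver of FVB;129 mice aged 14 days when treated. Per the design text, the albumin promoter drove Cre recombinase, and that promoter works in hepatocytes and their precursors. The loxP sites lay in Rb1 (the retinoblastoma protein gene, a brake on the cell cycle), in Trp53 (the p53 gene), or in both. Endothelial, stellate and blood cells are not targeted by that promoter and keep both genes. How far duct cells, which descend from the same precursors as hepatocytes, lost them is not given in the labels. The labels do not say whether WT mice carried Cre or loxP sites. The carcinogen diethylnitrosamine (DEN), which becomes DNA-damaging once hepatocytes metabolise it, was injected once into the abdomen at 20 mg/kg, and liver was taken after 24 h. The 6 groups were untreated WT (3 arrays), untreated DKO, labelled KO for both genes (3), and, after DEN, WT (5), p53KO (5), RbKO (4) and DKO (5). Untreated mice have the treatment none in the labels, whereas the design text speaks of saline. Nothing in the labels says that replicates came from separate animals, so p-values measure only the spread between these samples, which may be technical.

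Bile duct cells, or cholangiocytes, line the ducts that drain bile and arise with hepatocytes from a common fetal precursor, the hepatoblast. In chronic injury, cells that carry duct markers can spread from the portal region in what is called a ductular reaction, and hepatocytes can themselves take up duct genes such as Sox9. Duct cells are a small minority of liver cells, so in whole liver their markers are read against a large hepatocyte background. In bulk liver RNA, fewer cells of a type and less RNA per cell cannot be told apart.

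The members called most often, Tm4sf4 and Prom1, are shown by windows from RefSeq (GRCm38.p6) that run from 250 bases before to 50 bases after an annotated start site, so that the sequence around it can be seen. Capitals mark the motifs found. The Tm4sf4 window is chr3:57425160-57425459 on the plus strand, where that start site is the first base of the gene. The Prom1 window, 1 of 2 listed, is chr5:44101687-44101986 on the minus strand. It lies within the outer bounds of the gene given below, so its start site is an internal one.
Tm4sf4: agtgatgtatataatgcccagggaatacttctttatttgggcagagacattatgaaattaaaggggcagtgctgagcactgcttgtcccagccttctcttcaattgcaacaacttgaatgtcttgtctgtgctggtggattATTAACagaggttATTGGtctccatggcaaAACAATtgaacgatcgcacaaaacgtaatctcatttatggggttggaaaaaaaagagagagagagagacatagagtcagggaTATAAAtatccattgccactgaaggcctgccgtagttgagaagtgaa
Prom1: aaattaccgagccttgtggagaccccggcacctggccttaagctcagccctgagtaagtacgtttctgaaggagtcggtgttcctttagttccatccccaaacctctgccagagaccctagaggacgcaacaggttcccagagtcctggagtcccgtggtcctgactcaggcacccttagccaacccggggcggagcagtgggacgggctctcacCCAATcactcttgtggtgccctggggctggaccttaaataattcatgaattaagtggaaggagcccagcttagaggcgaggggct
The motifs were searched on both strands. For E2F they were TTTGGCGC and TTTCGCGC, and for p53 a half-site searched by its known pattern. The HNF1 half-site was GTTAAT and the TATA box was TATAAA. The CCAAT box was searched by its own letters, TEAD by GGAATG, RBPJ by GTGGGAA and SOX by AACAAT. No 2 of the marked motifs overlap. Counted from its start site, the Tm4sf4 window holds an HNF1 half-site at position -109 and a CCAAT box at -96, both on the minus strand. On the plus strand it holds a SOX match at -79 and the TATA box letters at 4. Position 4 lies after the annotated start site, so this is a match to the letters only. Among all 32851 listed promoters, 7.1% hold that HNF1 half-site, 37.4% the CCAAT box, 10.7% the SOX match and 13.6% the TATA box. The shares were 0.813% for E2F, 8.36% for the p53 half-site, 14.7% for TEAD and 6.38% for RBPJ. The Prom1 window holds a CCAAT box at -35 from its own, internal start site. Neither window holds a match to the other motifs, which says only that those letters are not in these 300 bases.

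By their names the 25 arrays fall into 3 sets of 16, 4 and 5 arrays. All 6 groups are in set 1. Set 2 holds untreated WT replicate 3, WT DEN replicates 4 and 5 and RbKO DEN replicate 4, and p53KO DEN replicates 3 to 5 and DKO DEN replicates 4 and 5 make up set 3. The first principal component took 25.8% of the variance and placed set 2 between 41.1 and 48.7, away from the other arrays at -19.2 to 9.61. Every test therefore carried the set as a term, and values from set 1 alone are given beside the members' called differences. With no set term, 1 of the members' 11 called differences was still called, that of Prom1 after DEN in DKO. Hepatocyte genes averaged 10.8 to 11.6 on the log2 scale in every array, as a check of the tissue. Among 22 other duct markers listed, 19 were measured and 15 passed the limit for dim probe sets, while Cftr, at 2.65, Muc1, Slc5a1 and Slc10a2 did not. Rb1 lay between 5.55 and 6.28 in RbKO DEN and between 5.04 and 6.02 in WT DEN. In untreated mice Rb1 lay between 4.76 and 5.02 in DKO and between 5.30 and 5.76 in WT (difference -0.50, adjusted p = 0.336). Of the 11 comparisons, 0 called it, with 2 under 0.05 before adjustment. Within set 1 it was called in 3, higher after DEN in WT and in DKO, and lower in DKO than in WT after DEN (-0.49, adjusted p = 0.0136). The part of Rb1 that was deleted is not given in the labels, so this level does not check them, and each direction below rests on the labelled genotype.

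**Figure D1:**
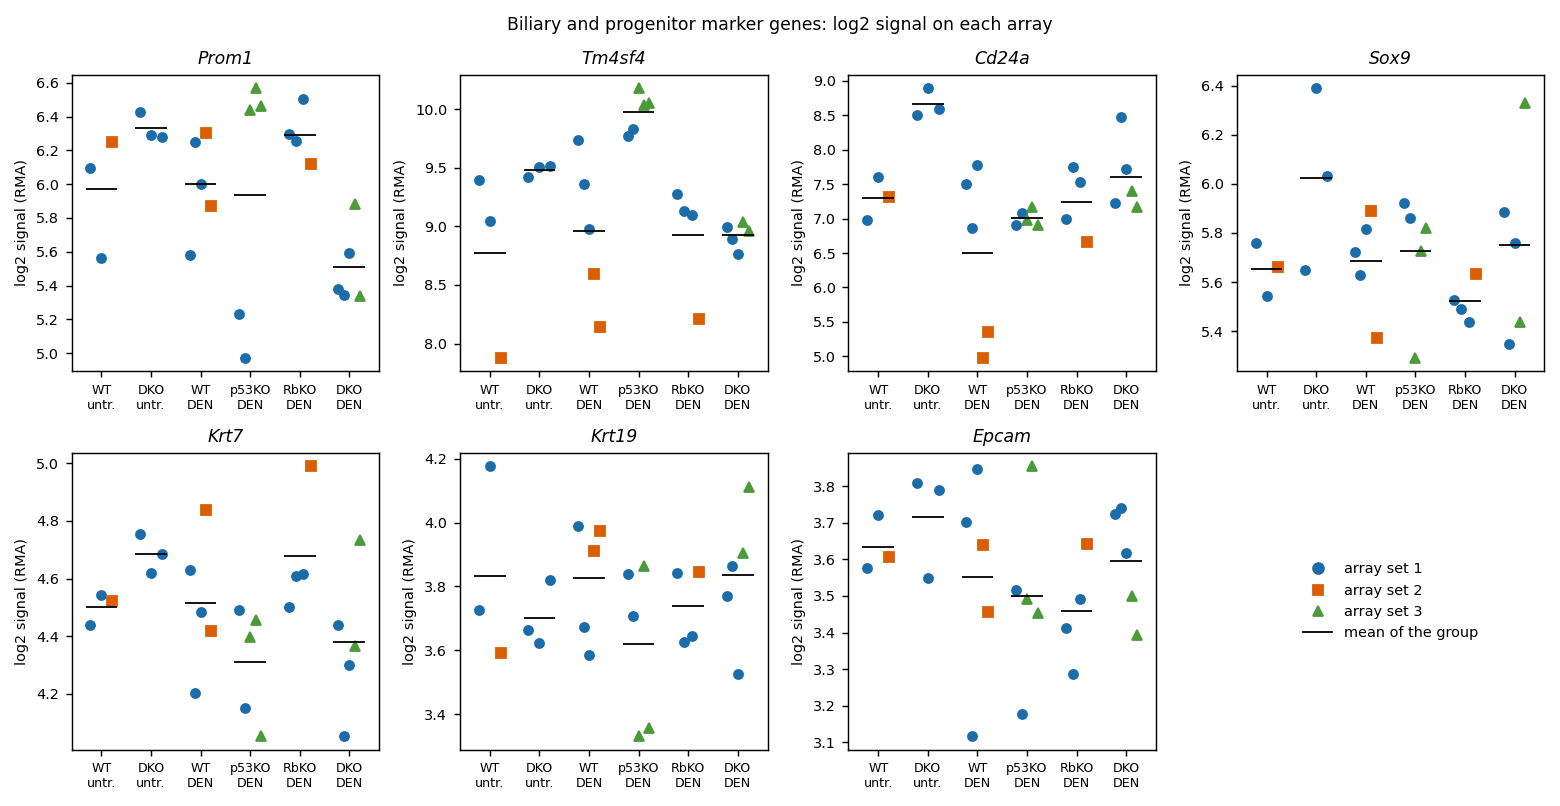
Log2 value of each of the 7 measured marker genes (one panel per gene) on all 25 arrays, by group, with the array set shown by symbol and a bar at the group mean. Prom1 in DKO DEN sits between 5.34 and 5.88, below all 3 untreated DKO arrays, and Tm4sf4 in p53KO DEN sits between 9.77 and 10.18, above every other DEN array.

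Prom1 encodes prominin 1 (CD133), a membrane glycoprotein of cell surface protrusions used to mark progenitor cells. Its probe set 10529824 belongs to the gene at chr5:43993621-44102047 (GRCm38.p6). Prom1 fell after DEN in DKO liver. The untreated DKO arrays read 6.43, 6.29 and 6.28, and the DKO DEN arrays 5.38, 5.34, 5.59, 5.88 and 5.34, so the groups did not overlap. The difference was -1.14 on the log2 scale (SE 0.22, 95% interval -1.60 to -0.68), a fold of 0.454, with an adjusted p of 0.000586 by limma with Benjamini-Hochberg adjustment over all genes tested. Within set 1 it was -0.90 (adjusted p = 0.000462). The plain means of the groups, without the set term, were 5.51 after DEN and 6.33 untreated, so part of the -1.14 comes from the set term.

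In WT liver, Prom1 read 6.10, 5.56 and 6.25 untreated and 5.58, 6.25, 6.00, 6.31 and 5.87 after DEN. These groups overlapped, and the difference was 0.03 (95% interval -0.41 to 0.46, adjusted p = 0.974). The DEN response differed between the genotypes by -1.16 (SE 0.31, adjusted p = 0.0156), and within set 1 by -1.01 (adjusted p = 0.0164). Without untreated WT replicate 2, the lowest of its group, the adjusted p was 0.0531.

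Tm4sf4 encodes a membrane protein of the L6 transmembrane family that is found in liver and gut. Its probe set 10492174 belongs to the gene at chr3:57425410-57441677. Its mean of 9.19 is at percentile 97.0 of the named genes, whereas Krt19 is at 30.8 and Epcam at 25.7. Which liver cells supply the Tm4sf4 signal was not tested, so its changes need not be changes in duct cells. Tm4sf4 also fell after DEN in DKO liver. The untreated DKO arrays read 9.42, 9.51 and 9.51, and the DKO DEN arrays 8.99, 8.89, 8.76, 9.04 and 8.96, with no overlap. The difference was -0.63 (SE 0.15, fold 0.645, adjusted p = 0.00304), and within set 1 it was -0.60 (adjusted p = 0.00632). The call was lost with the set as a random block (-0.56, adjusted p = 0.0589) and with no set term (-0.55, adjusted p = 0.212).

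In WT liver, Tm4sf4 read 9.39, 9.04 and 7.88 untreated and 9.73, 9.36, 8.98, 8.59 and 8.14 after DEN. The lowest values in both WT groups came from set 2, in which Tm4sf4 averaged 8.20, against 9.29 in set 1 and 9.65 in set 3. With the set term the WT difference was 0.26 (95% interval -0.03 to 0.55, adjusted p = 0.35). The DEN response differed between DKO and WT by -0.89 (SE 0.20, adjusted p = 0.00637). Within set 1 it was -0.74 with an adjusted p of 0.052, which missed the threshold. It also missed it with the set as a random block (-0.79, adjusted p = 0.0855) and with no set term (-0.74, adjusted p = 0.347).

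Cd24a encodes a small glycosylated surface protein that is carried by progenitor and duct cells and also by immature B cells and neutrophils. Its probe set 10362896 belongs to the gene at chr10:43579169-43584265. Untreated DKO arrays read 8.50, 8.90 and 8.59 and DKO DEN arrays 7.23, 8.48, 7.72, 7.39 and 7.17, which do not overlap. The fall was -0.96 (SE 0.34, adjusted p = 0.0418), with -0.85 in set 1 (adjusted p = 0.0293). The call was lost when any 1 of 7 of the 8 arrays in the comparison was left out, with an adjusted p of up to 0.149, reached without untreated DKO replicate 2.

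In WT liver, Cd24a read 6.98, 7.61 and 7.32 untreated, and 7.50, 6.87, 7.77, 4.98 and 5.36 after DEN. The 2 low values are WT DEN replicates 4 and 5, both in set 2, where the untreated WT array read 7.32. The WT difference was -0.72 over all sets (adjusted p = 0.232), 0.09 within set 1 (adjusted p = 0.91) and -2.15 within set 2, where 2 DEN arrays are set against 1 untreated array. Its direction thus differed between sets. The DEN response of Cd24a in DKO minus that in WT was -0.24 (95% interval -1.19 to 0.71, adjusted p = 0.811), and within set 1 it was -0.94 (adjusted p = 0.186).

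Of the 7 members, 3 were called lower after DEN in DKO liver (Prom1, Cd24a and Tm4sf4) and 0 higher. Over all genes tested, 21% were called in this comparison, 16.5% lower and 4.49% higher. The members' median difference was -0.36, against -0.00 over all genes. In WT liver 0 of 7 were called after DEN, where 3.99% of all genes were, and 1 member, Cd24a, had an unadjusted p under 0.05. By that p Cd24a had only rank 2142 among the 15951 genes tested, so many genes passed that looser limit. For the difference between the responses, 2 of 7 were called, both more negative in DKO, against 9.91% of all genes in either direction and 8.54% in that direction.

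**Figure D2:**
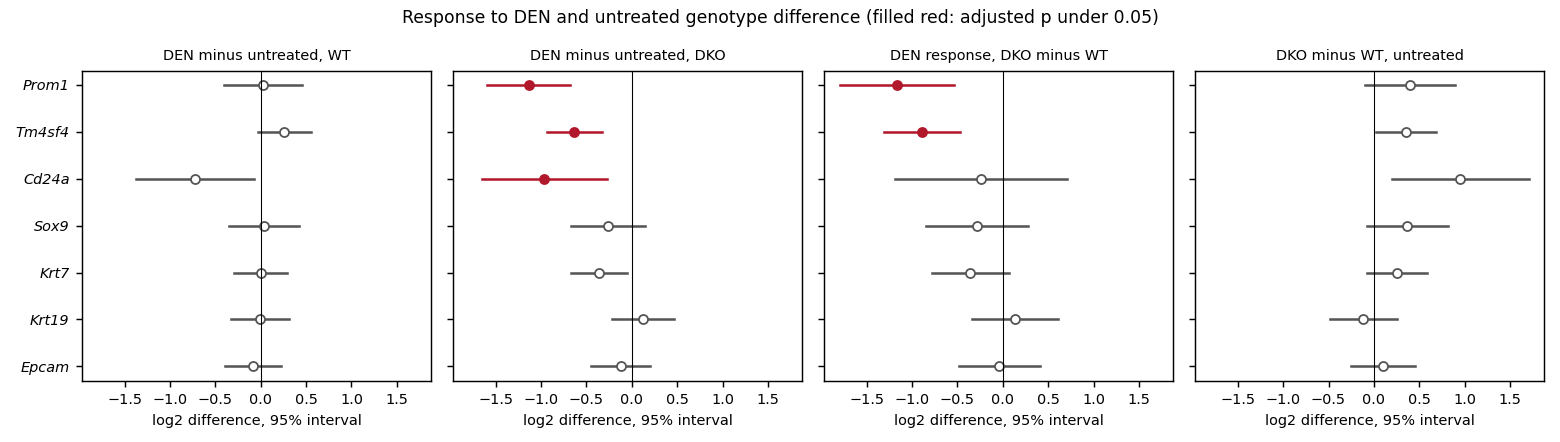
Log2 differences with 95% intervals for the 7 genes in 4 comparisons, namely DEN minus untreated in WT, DEN minus untreated in DKO, the DKO response minus the WT response, and untreated DKO minus untreated WT. Filled red points have an adjusted p under 0.05, and they are Prom1 (-1.14), Cd24a (-0.96) and Tm4sf4 (-0.63) in DKO and Prom1 and Tm4sf4 in the difference of responses.

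Before any DEN, the largest difference between the genotypes was that of Cd24a. All 3 untreated DKO arrays, at 8.50 to 8.90, were above the WT arrays, at 6.98 to 7.61. The difference was 0.95 (SE 0.37, 95% interval 0.20 to 1.70) with an adjusted p of 0.25. Within set 1, where WT has 2 arrays, it was 1.37 (adjusted p = 0.0115). Leaving out untreated WT replicate 3, the only untreated array outside set 1, gave the same 1.37 (adjusted p = 0.0305). The same arrays are compared in both, so the second value is no separate support. Prom1 (0.40, adjusted p = 0.564) and Tm4sf4 (0.35, adjusted p = 0.373) were not called.

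In all, 4 of the 7 members did not overlap between the untreated genotypes, Krt7, Prom1, Cd24a and Tm4sf4, each higher in DKO, and 0 of 7 were called. By unadjusted p, 2 were under 0.05. Of all genes tested, 26.6% did not overlap between these 2 groups, 15.2% with DKO higher, and 1.11% were called.

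Neutrophils and B cell precursors also carry Cd24a, so their markers are given beside it. The mean of the 10 neutrophil markers lay between 5.75 and 6.49 in untreated DKO, between 4.56 and 4.75 in untreated WT and between 4.81 and 5.58 in DKO DEN. Of 9 neutrophil markers tested, 3 were called higher in untreated DKO than in untreated WT, with Ngp at 3.01, Camp at 1.90 and Mpo at 0.84 log2. Over all genes tested, 1.11% were called in that comparison, in either direction. After DEN in DKO, 5 of the 9 were called lower, where 16.5% of all genes were. Ly6g, a defining neutrophil marker, had a mean of 2.95, under the limit for dim probe sets. The 9 B cell markers averaged 4.12 to 4.34 in untreated DKO and 3.78 to 4.27 in untreated WT, which overlap. Among them 1 of 6 tested, Vpreb1, was called higher in untreated DKO (1.84, adjusted p = 0.0479), against the same 1.11% of all genes. Cd79a and Ms4a1 were under the limit. Of 7 erythroid markers tested, 0 were called higher and 1 lower in untreated DKO than in untreated WT. The erythroid list averaged 4.89 in untreated DKO and 4.97 in untreated WT. The part of any of these blood cells in the Cd24a values was not tested.

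Sox9 encodes a transcription factor of duct cells and of duct development, and its gene lies at chr11:112782210-112787757. Untreated DKO arrays read 5.65, 6.39 and 6.03 and untreated WT arrays 5.76, 5.54 and 5.66, while DKO DEN arrays spread from 5.35 to 6.33. The groups overlapped in both comparisons. For Sox9, 0 of the 11 comparisons passed, before or after adjustment of p, and its largest difference was 0.37, for untreated DKO against untreated WT (95% interval -0.08 to 0.81, adjusted p = 0.542).

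Krt7 and Krt19 encode keratins of the duct cell's intermediate filaments, at chr15:101412403-101427806 and chr11:100140810-100145926. Krt7 read 4.75, 4.62 and 4.68 in untreated DKO and 4.44, 4.05, 4.30, 4.37 and 4.73 in DKO DEN. DKO DEN replicate 5 alone reached the untreated range. The difference was -0.36 (95% interval -0.67 to -0.05, adjusted p = 0.0888), and it was -0.42 in set 1 (adjusted p = 0.0225) and -0.40 without that array (adjusted p = 0.0477). Over all 11 comparisons Krt7 was called in 0, with an unadjusted p under 0.05 in 3. Krt19 lay between 3.33 and 4.18 on the 25 arrays, with group means within 0.22 of one another after the set term, and it was called in 0 comparisons (0 by unadjusted p).

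Epcam encodes the epithelial cell adhesion molecule, used to sort duct and progenitor cells, at chr17:87635979-87651127. Its 25 arrays lay between 3.12 and 3.85, close to the limit of 3.33 for dim probe sets, and its fitted group means spanned 0.27. It was called in 0 of 11 comparisons (0 by unadjusted p). In WT its DEN difference had a 95% interval of -0.39 to 0.22, and in DKO of -0.45 to 0.21. Krt19 lies near the same limit, with a mean of 3.76.

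After DEN, the genotypes differed in Tm4sf4 and Prom1. For Tm4sf4, p53KO DEN read 9.77, 9.83, 10.18, 10.03 and 10.06, RbKO DEN read 9.27, 9.13, 9.09 and 8.21, and the DKO DEN values were those given above. Each p53KO array was above every WT, RbKO and DKO array. DKO was lower than p53KO by -1.005 (SE 0.12, 95% interval -1.26 to -0.75, fold 0.498, adjusted p = 0.000102), by -0.92 within set 1 (adjusted p = 0.00692) and by -1.09 within set 3 (adjusted p = 0.0198).

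DKO Tm4sf4 was also lower than WT, by -0.54 (SE 0.14, adjusted p = 0.0122), with -0.48 in set 1 (adjusted p = 0.0474). Without WT DEN replicate 1, the highest WT array, the adjusted p was 0.0593, and with no set term the difference was -0.03 and not called. Against RbKO, DKO was at -0.35 (95% interval -0.63 to -0.06, adjusted p = 0.266). The p53KO level was 0.66 above RbKO (SE 0.15, adjusted p = 0.0381) and 0.64 above it in set 1 (adjusted p = 0.0435). That call was lost in 7 of 9 leave-outs, with an adjusted p of up to 0.137 without p53KO DEN replicate 2. The p53KO level was 0.46 above WT with an adjusted p of 0.103, and 0.58 above it without WT DEN replicate 1 (adjusted p = 0.0421).

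Prom1 after DEN was lower in DKO than in RbKO, whose arrays read 6.30, 6.25, 6.50 and 6.12, all above the DKO arrays. The difference was -1.07 (SE 0.21, 95% interval -1.51 to -0.64, adjusted p = 0.0117), and -0.91 in set 1 (adjusted p = 0.00722). DKO was lower than WT by -0.76 (SE 0.21, adjusted p = 0.0179). That call did not hold within set 1 (-0.51, adjusted p = 0.0501) or without WT DEN replicate 2 (adjusted p = 0.0597).

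The p53KO arrays split by set for Prom1. Replicates 1 and 2, in set 1, read 5.23 and 4.97, and replicates 3 to 5, in set 3, read 6.44, 6.57 and 6.46. DKO minus p53KO was 0.34 in set 1 (adjusted p = 0.309) and -0.88 in set 3 (adjusted p = 0.0636), so the direction differed between sets, and the value over all sets was -0.27 (adjusted p = 0.505). Within set 1 alone, p53KO was lower than WT by -0.84 (adjusted p = 0.0101) and lower than RbKO by -1.25 (adjusted p = 0.00164), and neither was called over all sets (adjusted p = 0.264 and 0.119).

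Cd24a was not called in any comparison between DEN-treated genotypes. The p53KO arrays read 6.91, 7.08, 6.98, 7.17 and 6.91, and the RbKO arrays 6.99, 7.75, 7.54 and 6.66. DKO minus WT was 0.71 (95% interval 0.07 to 1.36, adjusted p = 0.149), with set 2's low WT arrays in the WT mean, and 0.43 in set 1 (adjusted p = 0.362). Without WT DEN replicate 3 it was 0.99 (adjusted p = 0.0382).

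Between the DEN-treated genotypes, the members called were 0 of 7 for p53KO against WT, where 1.78% of all genes were called, and 0 of 7 for RbKO against WT, where 11.4% were. By unadjusted p, 2 members passed 0.05 in the first of these and 0 in the second. For DKO against WT, 2 of 7 were called, both lower, against 11.8% of all genes (9.14% lower). For DKO against p53KO it was 1 of 7, against 1.87% of all genes (1.51% lower). For DKO against RbKO it was 1 of 7, lower, against 1.03% (0.884% lower), and for p53KO against RbKO 1 of 7, higher, against 0.577% (0.194% higher).

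A further contrast asked whether the DKO level equalled the sum of the single-knockout changes, taking WT as the base and using the 4 DEN groups. For Tm4sf4 it was -0.81 (SE 0.18, adjusted p = 0.0432), meaning that DKO lay below that sum, and 1 of 7 members was called, against 0.426% of all genes (0.326% in that direction). The call was lost in 15 of 19 leave-outs, with an adjusted p of up to 0.165 without RbKO DEN replicate 4, and it was -0.72 in set 1 (adjusted p = 0.105).

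With set 1 alone, where each group has 2 or 3 arrays, the members called were 4 of 7 for DEN in DKO (25.3% of all genes), 0 for DEN in WT (11%), 1 for the difference of responses (7.35%) and 1 for the untreated genotypes (5.59%). After DEN they were 1 for p53KO against WT (5.91%), 0 for RbKO against WT (3.34%), 1 for DKO against WT (10.9%), 1 for DKO against p53KO (4.87%), 1 for DKO against RbKO (1.73%), 2 for p53KO against RbKO (3.34%) and 0 for the sum contrast (1.32%). The fourth member in DKO was Krt7, and the second in p53KO against RbKO was Prom1.

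**Figure D3:**
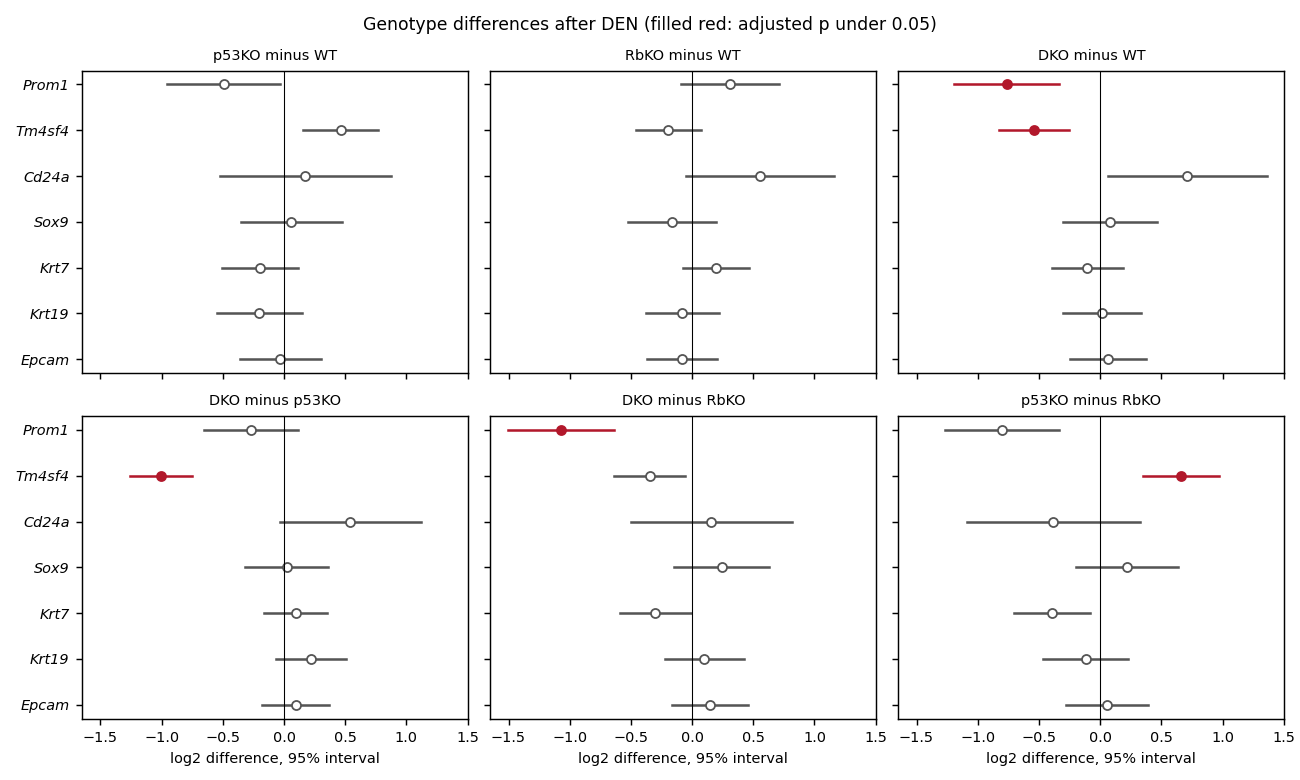
Log2 differences with 95% intervals between genotypes after DEN for the 7 genes, with filled red points for an adjusted p under 0.05. Tm4sf4 in DKO against p53KO is the farthest called point from 0 for that gene, at -1.005, and the intervals of Epcam, Krt19 and Sox9 include 0 in these panels.

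With the set term, the fitted levels of Prom1 ran from 6.33 in untreated DKO and 6.27 in RbKO DEN through 5.96 in WT DEN, 5.93 in untreated WT and 5.47 in p53KO DEN to 5.20 in DKO DEN. Those of Tm4sf4 ran from 9.85 in p53KO DEN through 9.48 in untreated DKO, 9.39 in WT DEN, 9.19 in RbKO DEN and 9.13 in untreated WT to 8.85 in DKO DEN. DKO DEN was thus lowest for both in this fit. For Prom1, however, the fitted 5.20 lies below every DKO DEN array, of which the lowest read 5.34. Set 3 holds only p53KO and DKO arrays, and the Prom1 difference between these changed direction between sets. A single set term therefore describes Prom1 poorly. Each called Prom1 difference was larger in size over all sets than within set 1. Within set 1, which holds all 6 groups, it was also lowest for Tm4sf4, with a mean of 8.88. For Prom1, p53KO DEN was lowest within set 1, with a mean of 5.10 against 5.44 in DKO DEN. The fitted levels of Cd24a ran from 8.66 in untreated DKO through 7.71 in untreated WT, 7.70 in DKO DEN, 7.54 in RbKO DEN and 7.16 in p53KO DEN to 6.99 in WT DEN. Within set 1 its lowest mean was that of p53KO DEN, at 6.99, against 7.38 in WT DEN. Of the neighbours in the fitted orders, the pairs that were tested against each other were not called, and the rest differ in both genotype and treatment and were not tested.

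The 7 members did not move as a block. After the set means were subtracted, Pearson's r over the 25 arrays ran from -0.47 (Krt19 and Prom1) to 0.42 (Epcam and Cd24a) across the 21 pairs. These are descriptions, since arrays share groups.

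The genes most like each member were found by the same measure over all genes tested. For Prom1 they were Robo1 (r = 0.85), a guidance receptor, and Emcn (0.84) and Cdh5 (0.83), both known from endothelial cells. For Tm4sf4 they were Parl (0.91), a mitochondrial protease, Dctn5 (0.83), a dynactin subunit, and Proser1 (0.82). For Cd24a they were Ift74 (0.85), Arhgef6 (0.85) and Kcnt2 (0.84).
Parl shared some of the called differences of Tm4sf4 in its own tests. It was lower after DEN in DKO by -0.55 (adjusted p = 0.00928), lower in DKO than in p53KO after DEN by -0.92 (adjusted p = 0.000249), and its DEN response differed between DKO and WT by -1.03 (adjusted p = 0.00223). In DKO against WT after DEN it was lower by -0.78 (adjusted p = 0.000783), as Tm4sf4 was. Unlike Tm4sf4, Parl was called higher after DEN in WT (0.49, adjusted p = 0.0472). It was not called for p53KO against RbKO (0.50, adjusted p = 0.15) or for the sum contrast (-0.55, adjusted p = 0.114), where Tm4sf4 was. Parl was chosen for its likeness, so these values are no separate support. Among the less variable members, the closest were Trpm4 to Epcam (0.71), Gm10277 to Krt19 (0.77), Lnx2 to Krt7 (0.72) and Map1b to Sox9 (0.74).

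**Figure D4:**
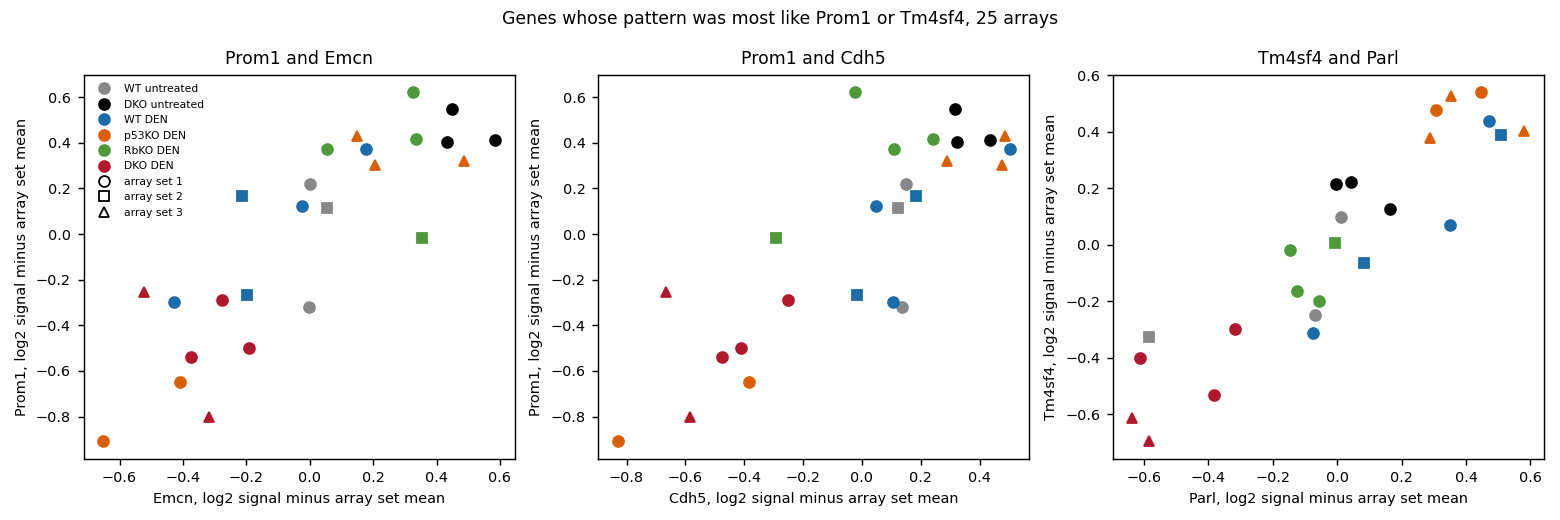
Prom1 against Emcn, Prom1 against Cdh5 and Tm4sf4 against Parl, as log2 signal minus the array set mean, 1 point per array, coloured by group and shaped by set. The values rise together (r = 0.84, 0.83 and 0.91), and these genes were chosen for that likeness, with every DKO DEN array below 0 on both axes. The sets hold different groups, so 0 is not the same baseline in each. In set 3, which holds only p53KO and DKO DEN arrays, below 0 means below the mean of those arrays.

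A list of endothelial markers was added after Emcn and Cdh5 were seen among the genes most like Prom1, and it includes both. Of its 12 genes, all above the limit for dim probe sets, 11 were called lower after DEN in DKO. Their median was -0.92, against -0.00 over all genes, of which 16.5% were called lower. In DKO against WT after DEN, 8 of the 12 were called lower, against 9.14% of all genes. In DKO against RbKO, 4 of the 12 were, against 0.884%. Emcn and Cdh5 are among the 11, and the list was added for its likeness to Prom1, so these counts are no separate support. Markers of other cell types were also called lower after DEN in DKO, with 5 of 10 stellate cell and fibroblast markers (2 higher, median -0.33), 4 of 12 macrophage markers (median -0.08) and the 5 of 9 neutrophil markers above. The mean level of the endothelial list lay between 6.40 and 6.51 in untreated DKO, 5.42 and 5.72 in DKO DEN and 5.53 and 5.92 in p53KO DEN. Emcn, Cdh5 and Prom1 were each higher in the p53KO arrays of set 3 than in those of set 1, with Emcn means of 5.47 and 4.84 and Cdh5 means of 7.32 and 6.67. The part of endothelial or other cells in the Prom1 values was not tested.

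Of the 15 other duct markers tested, 4 were called lower after DEN in DKO, with Aqp1, the water channel of duct and endothelial cells, at -1.29, Krt8 at -0.70, Cdh1 at -0.57 and Pkhd1 at -0.51, and 0 were called higher (median -0.25, against -0.00 over all genes, of which 16.5% were called lower). In WT after DEN, 2 were higher, Krt8 (1.11) and Krt18 (0.95), keratins that hepatocytes also make, and Pkhd1 was lower (-0.72). Over all genes, 3.99% were called there in either direction. Krt23 was higher in untreated DKO than in untreated WT (1.56), as the 1 called of 15, against 1.11% of all genes. After DEN, 4 of 15 were lower in DKO than in WT, Aqp1, Krt8, Krt18 and Cdh1, against 9.14% of all genes.

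Of 14 genes of Notch signalling and duct fate, the route that directs hepatoblasts towards duct cells, 4 were lower after DEN in DKO (Notch2 at -1.21, Hes1 at -0.76, Notch1 at -0.56 and Heyl at -0.54) and 10 were not called (median -0.23), against the same 16.5% of all genes called lower. Another list of 12 genes held YAP and TEAD factors, which promote duct features in liver (Yap1, Wwtr1, Tead1 and Tead4), together with target genes. In that comparison 1 of the 12 was called higher and 1 lower, Ccn2 at 0.49 and Ccn1 at -0.56 (median -0.02). Over all genes, 21% were called in either direction. In DKO against WT after DEN, the called gene of these lists was Ccn1, lower by -0.53.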

How the data were processed

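The authors deposited log2 expression values for 25 single-colour Affymetrix mouse gene arrays, made by RMA in Affymetrix Expression Console 1.1, per the submitters' processing notes. RNA was amplified with WT-Ovation Pico, per the labels' protocols. The number of normalization runs is not given in the sources used here, nor is the genome build. Of 35555 probe sets, 21789 had 1 gene symbol in the platform table, 1620 several and 12146 were not listed. Per gene the probe set with the highest mean was kept, and genes with a mean under the 20th percentile were left out.

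Group means with the array set as a fixed term entered 1 limma 3.58.1 model of the 25 arrays in R 4.3.3 (lmFit, eBayes), with Benjamini-Hochberg adjustment over 15951 genes, and a gene was called at an adjusted p under 0.05. There were 11 comparisons. The script was tested on simulated data. Named genes are the members, up to 4 called genes per list and comparison, and the 3 genes most like each member. The members and lists were chosen with earlier results of these data known. The number of arrays limits the precision. Alternatives were no set term, a random block for the set, single sets, another limit for dim probe sets or none, centring, quantile normalization, limma's trend and robust options, and leaving out each array.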

Additional observations from a re-analysis of the deposited data

Results flagged for a closer look

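Tm4sf4 in RbKO DEN replicate 4 read 8.21, and the nearest of the other 3 arrays read 9.09. The gap was 0.830 of the group's range, past the limit for a single outlying sample in a group of 4. That array is the RbKO array of set 2, in which Tm4sf4 was low in all 4 arrays. Of 28 combinations of gene and group examined, 1 stood out in this way, and chance flags about 1 in 20.

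The response of Prom1 to DEN differed between DKO and WT liver by -1.16 on the log2 scale, and that of Tm4sf4 by -0.89, both by limma's test of the difference between the responses. For Tm4sf4, DKO after DEN also lay below the sum of the single-knockout changes by -0.81. None of these calls held with no set term. The difference of responses for Tm4sf4 was also not called in set 1 alone or with the set as a random block. The sum contrast lost its call in 15 of 19 leave-outs and in set 1 alone.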

How the results depend on the processing

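Of 77 differences (7 members in 11 comparisons), 11 were called, and none of these changed direction under any alternative. Leaving out 1 array at a time lost the call in 32 of 123 checks, and the other alternatives in 25 of 111. The fall of Cd24a after DEN in DKO was not called in 5 of its 10 other alternatives. With no set term, the members called numbered 1 for DEN in DKO (3 with it; Prom1 remained), 0 for the difference of responses (2), 1 for p53KO against WT (0), 0 for DKO against WT after DEN (2), and 0 for each of DKO against p53KO, DKO against RbKO, p53KO against RbKO and the sum contrast (1 each). With the set as a random block (correlation 0.348), the counts were 1 for DEN in DKO, 1 for the difference of responses, 1 for p53KO against WT, 1 for DKO against WT after DEN, 0 for p53KO against RbKO and 0 for the sum contrast. In set 1 alone they were 1 for the difference of responses, 1 for DKO against WT untreated, 1 for p53KO against WT, 1 for DKO against WT after DEN, 2 for p53KO against RbKO and 0 for the sum contrast. In set 2 alone, 1 member, Cd24a, was called for DEN in WT and 1, again Cd24a, for RbKO against WT (1.49). Both rest on 2 WT DEN arrays against 1 untreated WT array or 1 RbKO array, with the lone array assumed to vary like the WT DEN arrays, so they say little. Without set 2 the counts were 1 for DKO against WT untreated and 0 for the sum contrast. Quantile normalization gave 0 for p53KO against RbKO and 0 for the sum contrast. With each array left out in turn, the counts ranged from 2 to 3 for DEN in DKO, 1 to 2 for the difference of responses, 0 to 1 for DKO against WT untreated, 0 to 1 for p53KO against WT, 1 to 3 for DKO against WT after DEN, 0 to 1 for p53KO against RbKO and 0 to 1 for the sum contrast. They stayed at 0 for DEN in WT and for RbKO against WT, and at 1 for DKO against p53KO and DKO against RbKO. Centring each array on its median moved the median of all genes by 0.107 for DEN in DKO and by 0.13 for the difference of responses. Differences called in neither fit changed sign 52 times with an array left out and 36 times otherwise. The cause of these changes was not tested. No paired analysis was possible because the replicate numbers only name arrays in accession order. Epcam and Krt19 lie close to the limit for dim probe sets, which limits what these arrays can show for them.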

Other observations

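Genes of hepatoblasts and progenitor cells were described beside the duct markers. Of 12 tested, Igf2 (2.72), a fetal growth factor, and Afp (2.42), the fetal serum protein alpha-fetoprotein, were called higher in untreated DKO than in untreated WT liver. Over all genes, 1.11% were called there in either direction. The list median was 0.15, against 0.01 over all genes. After DEN in WT, 3 of 12 were called higher, Bex1, Tnfrsf12a and Afp, and 1 lower, Fn1, against 3.99% of all genes in either direction. After DEN in DKO, 3 of 12 were called lower, Fn1, Igf2 and Gpc3, against 16.5% of all genes. Their DEN response differed between DKO and WT in 4 of 12, each more negative in DKO, against 8.54% of all genes, with Igf2 at -2.81 and Afp at -2.70.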
